A study of Poecilia latipinna with 15 samples.

Results

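Whole-brain transcriptomes of 15 female sailfin mollies (Poecilia latipinna) were compared by the number that each fish carries in the sample labels, with females 1 to 8 as one group and females 9 to 19 as the other. All 15 females of the series entered the comparison, 8 with a low number (4 Ff and 4 Mm) and 7 with a high number (3 Ff and 4 Mm), and no female carried a number from 14 to 16 or the number 18. The sources used here do not say what the numbers record. The split was chosen from these same libraries, because females 1 to 8 and females 9 to 19 lay on different sides of the first principal component of expression, which held 14.67% of the variance between libraries. Scores of the low-numbered females on that component lay between 17.58 and 89.82, those of the high-numbered females between -102.93 and -0.34, and the females nearest the dividing line were female 6 (17.58) and female 10 (-0.34). For this reason the difference between the number groups is described below and is not evidence that the groups differ. Only the interaction of number group with social context, and the depth and detected transcripts of the libraries, were tested. These tests used the same split of the same libraries, and it was chosen over both contexts together.

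Ff stands for the female-interaction context, in which a female chose between female shoaling partners that differed in size, and Mm stands for the male-interaction context, in which she chose between males that differed in size. The fish were sexually experienced, came from outdoor ponds kept close to natural conditions, were held alone before the trial so that they would be receptive, and were assigned to a context at random. Every female of the series went through a choice trial without contact and was killed directly afterwards, so no library shows a brain that had not met other fish. All the females were kept in the study because they spent most of the trial near the stimulus fish. Each library comes from the brain of a single female, and sequencing ran over more than 1 lane, with the lane of each female not given in the sources used here. Lane, day or season and the number of the fish therefore cannot be told apart.

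Teleost brains hold neurons, radial glia that keep dividing in the adult, oligodendrocytes, microglia, vessels and blood, and a whole-brain library averages over all of them. Expression in such a library can move with behavior within minutes for activity-induced genes, and with daily, seasonal or reproductive state over longer times. In bulk tissue, fewer cells of a type and less RNA per cell cannot be told apart. The sources used here do not pair the transcript identifiers with gene names, so neither the functions of the transcripts nor the markers of brain cell types were examined, and the tissue label was not checked against markers.

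The number groups also differed in behavior and size. In the behavioral scores listed for these females, every Ff female numbered 1 to 8 had a higher preference score than every Ff female numbered 9 to 19. The same held in Mm except for a single pair with nearly equal scores (females 6 and 10). The preference score is the share of a female's stimulus-directed movements that went to the stimulus she favored. Females 1 to 8 were also the longer fish for the most part. Number group, strength of preference and body size are therefore largely the same division of these 15 females, and what each contributed cannot be told apart in these data.

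Library totals, the sum of the estimated counts that the authors obtained with Kallisto, ranged from 3424641 in female 4 to 10555933 in female 8. In Ff the totals of females 1 to 8 had a median of 6372186 against 5465613 in females 9 to 19 (exact permutation test of the mean, 2-sided, p = 0.4), and in Mm the medians were 5102030 and 5793148 (p = 0.971, same exact test). More transcripts were detected above 0 in females 1 to 8. In Ff they averaged 24505 ± 902 (SD, n = 4) against 23342 ± 674 (SD, n = 3), and in Mm 24200 ± 548 (SD, n = 4) against 23224 ± 752 (SD, n = 4). The groups overlapped in both contexts and the differences did not pass the exact permutation test (2-sided, p = 0.171 in Ff and 0.0857 in Mm, 0.343 for each after adjustment over the 4 tests of this paragraph), where the smallest p-value the design allowed was 0.0286. After every library was thinned to the smallest total, females 1 to 8 still showed 22664 to 23998 detected transcripts and females 9 to 19 showed 21894 to 23276. The totals of the groups thus overlapped in both contexts, and the number of detected transcripts leaned toward females 1 to 8 without passing the test.

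Of 31813 transcripts in the reference, 21671 had a TPM (abundance scaled to transcript length and to the library) above 2 in 3 or more females and were kept. The transcripts nearest this limit reached, in the female that decided it, a TPM of 2.00005 inside and 1.99973 outside. With social context in the model, 1588 transcripts (7.33%) were called, meaning that their adjusted p-value from voom and limma lay below 0.05, and 4976 (23%) had an unadjusted p-value below it, 2536 of them (11.7%) higher and 2440 (11.3%) lower in females 1 to 8. Of the called transcripts, 630 (2.91%) were higher in females 1 to 8 and 958 (4.42%) were lower. Because the split was chosen on these libraries, the counts describe how much of the transcriptome moved with the division and nothing more is read from them. The balance of directions depended on how libraries were scaled. Without TMM factors 958 called transcripts were higher and 709 lower, so that 57.5% were higher in place of 39.7%, and on log2(TPM + 1) 966 were higher and 540 lower (64.1% higher). These scalings also moved the median difference of all 21671 transcripts from 0.047 to 0.103 and 0.115 on the log2 scale, and directions below are relative to the TMM scale unless stated. The TMM factors themselves lay between 1.0009 and 1.0341 for the low numbers and between 0.9425 and 1.0096 for the high numbers.

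Most differences were modest in size. Over all kept transcripts the log2 difference (females 1 to 8 minus females 9 to 19) had quartiles of -0.22 and 0.34 with a median size of 0.28, and its extreme 5% on either side lay below -0.98 and above 1.33. Among called transcripts the median log2 difference was 0.63 for those higher and -0.57 for those lower in females 1 to 8. Only 329 of the 1588 called transcripts exceeded a log2 size of 1, of which 130 were higher and 199 lower. The last transcript inside the call had a log2 difference of -0.22 (adjusted p-value 0.0497 in voom and limma), and the first outside it 0.24 (adjusted p-value 0.05). A fuller view of separation comes from the values themselves. The TPM of all 8 females numbered 1 to 8 lay above, or all lay below, those of all 7 others in 387 transcripts (1.79% of those kept), 203 of them (0.937%) higher and 184 (0.849%) lower. Of the called transcripts, 172 of the 630 higher and 182 of the 958 lower showed such complete separation. In most called transcripts at least 1 female of one group thus had a TPM within the range of the other. The calls rest on counts with TMM factors and the overlap on TPM without them. Separation on the TMM scale was not counted.

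The count of calls fell with each female left out. Each omission also leaves fewer females in the fit, and the part of that was not tested. Leaving out female 3 lowered it from 1588 to 940 and leaving out female 9 lowered it to 1001, while each of the other omissions left it within 1.5 times, with 1560 at the highest. The count was lower still with terms that run with the number group. With the preference score of each context in the model 50 transcripts passed the threshold (9 higher and 41 lower), with standard length 126 (19 higher and 107 lower), and with the number as a linear term beside the group 19 (2 higher and 17 lower). At an unadjusted p-value below 0.05 in limma these fits had 2907, 2914 and 2450 transcripts, against 4976 without such terms. Terms that run with the group leave less precision for its difference, and the part of that was not tested. The linear number in place of the group called 567 transcripts, 433 of which were among the 1588, and beside the group it called 0 in limma, where the group called 19. Whether these transcripts were among the 1588 was counted for the linear number in place of the group alone.

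Abundance set apart the transcripts that were lower in females 1 to 8. Called transcripts that were lower had a median TPM of 44.96 and a median annotated length of 1527 bases, called transcripts that were higher had a median TPM of 16.06 and a length of 2538 bases, and all kept transcripts had medians of 10.89 TPM and 1782 bases. Transcripts were divided by mean TPM into 10 bins of equal number. In bin 10, the most abundant (65.45 TPM or more), 358 were called lower (16.5%) and 90 higher (4.15%), against 16 lower (0.738%) and 21 higher (0.969%) in bin 1, the least abundant (up to 2 TPM). Calls lower in females 1 to 8 thus grew with abundance, without a drop between neighboring bins, and calls higher were most frequent in bin 6 (4.29%). Precision changed along the same axis, because the median standard error of the log2 difference fell from 0.89 in bin 1 to 0.12 in bin 10.

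The median difference itself also moved with abundance. It was 0.30 (log2) in bin 1, 0.07 in bin 6 and -0.08 in bin 10. Across transcripts Spearman's rho of the difference with mean TPM was -0.186 (n = 21671), and rho of the size of the difference with mean TPM was -0.354, as a description of transcripts that share the same 15 libraries. The order was the same inside each context, with medians of 0.31 and -0.10 for bins 1 and 10 in Ff and 0.27 and -0.08 in Mm. The excess of lower over higher calls in bin 10 was present under each of the 5 scalings tried, from 375 against 87 with RLE size factors to 225 against 153 on log2(TPM + 0.1). The median of that bin lay below the median of all transcripts by 0.113 to 0.137 in each of them, although on the TPM scale it was itself 0.002.

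**Figure D1:**
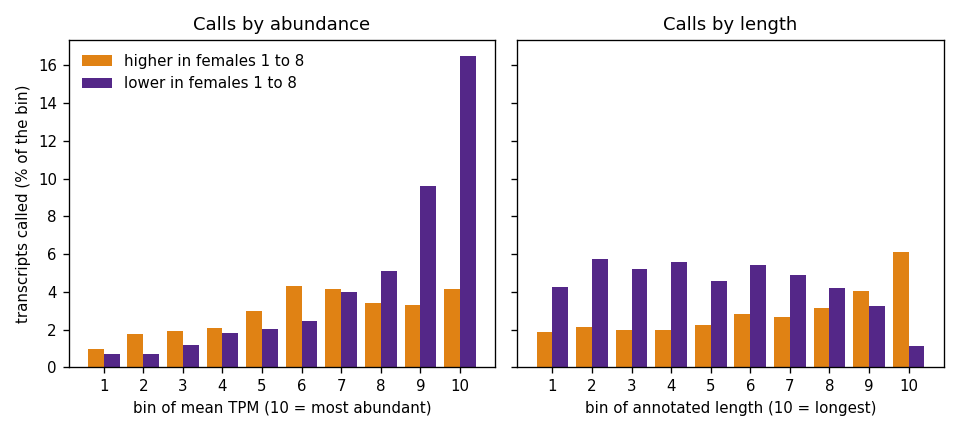
Share of transcripts called higher (orange) or lower (purple) in females 1 to 8, in percent of each of 10 equal bins of mean TPM (left) and of annotated length (right), from the fit with context in the model. Lower calls reach 16.5% in the most abundant bin, and higher calls reach 6.13% in the longest bin, where lower calls fall to 1.15%.

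Long transcripts showed the opposite leaning. In bin 10 of annotated length (4725 bases or more) 133 transcripts were called higher in females 1 to 8 (6.13%) and 25 lower (1.15%), with a median log2 difference of 0.14. In bins 2 to 5 of length 181 were called higher (2.09%) and 457 lower (5.27%) on the TMM scale, against 2.91% and 4.42% over all kept transcripts. That order turned on log2(TPM + 1), with 361 higher (4.16%) and 304 lower (3.51%). It turned in the same way over all kept transcripts, with 966 higher and 540 lower. In the longest bin the order held under all 5 scalings, with 95 to 193 higher and 4 to 26 lower. Abundance and length had a weak rank correlation (rho -0.055), but their relation was not steady. Median length was 1377 bases in abundance bin 1, 2220 in abundance bin 6 and 1192.5 in abundance bin 10, where it was lowest. The leanings by abundance and by length are therefore not separate. When both were divided into 3 equal parts, lower calls among the most abundant transcripts fell with length from 11% in the shortest to 7.04% in the longest. Over all transcripts the difference and length were only weakly related (rho 0.034), since the shortest bin also had a positive median, 0.14.

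Summed per female, the same transcripts gave ranges that overlapped between the number groups. The transcripts of abundance bin 10 took 70.2 to 72.3% of all TPM in females 1 to 8 and 69.3 to 74.5% in females 9 to 19. Those of length bin 10 took 2.95 to 3.58% in females 1 to 8 and 2.43 to 3.66% in females 9 to 19. Female 17, an Ff female, had the lowest share in abundant transcripts (69.3%) and the highest in long ones (3.66%), outside the range of females 1 to 8 on the side away from her own group. Female 13 (Mm) lay at the other end, with 74.5% and 2.43%. Whether RNA quality or the make-up of the libraries had a part in the leaning by length and abundance was not tested.

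Inside the contexts the difference was fitted on separate females, so that the 2 estimates shared no library. In Ff 1 transcript (0.00461%) passed the adjusted threshold of voom and limma and 2683 (12.4%) had an unadjusted p-value below 0.05, 1163 of them higher (5.37%) and 1520 lower (7.01%). In Mm 145 transcripts (0.669%) passed the adjusted threshold, 38 higher (0.175%) and 107 lower (0.494%), and 3585 (16.5%) passed the unadjusted one, 1712 higher (7.9%) and 1873 lower (8.64%). These adjusted counts were fragile. Leaving out any 1 of the 8 Mm females reduced the 145 to between 0 and 8, leaving out any 1 of the 7 Ff females reduced the 1 to 0, and with DESeq2 the counts were 655 in Ff and 924 in Mm. Sizes were alike in the contexts, with a median log2 size of 0.33 in Ff and 0.31 in Mm, and the median standard errors were 0.30 and 0.28.

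The transcript that passed in Ff also passed the adjusted threshold in Mm. It is annotated at 1265 bases and has no gene name in the sources used here. In Ff its TPM was 800.3, 709.3, 642.3 and 554.6 in females 1, 2, 7 and 8 and 1650.4, 1904.6 and 1541.5 in females 9, 17 and 19. In Mm it was 731.1, 721.1, 696.5 and 822.9 in females 3 to 6 and 1448.2, 1430.6, 1401.5 and 1380.2 in females 10 to 13. The lowest female of the high numbers thus lay far above the highest of the low numbers in either context, and the spread inside each group was narrow. Its log2 difference was -1.39 (SE 0.11) in Ff, -1.06 (SE 0.08) in Mm and -1.21 (SE 0.08) with both contexts together. It was singled out after its values were seen, and its estimated count was not whole in 14 of the 15 females, so part of its reads also matched other transcripts.

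Sign and size of the difference were shared between the contexts more in the abundant bins than in the least abundant ones, though not in steady steps. The median standard error also fell, from 0.89 in abundance bin 1 to 0.12 in bin 10. Its part in the agreement was not tested. Over all 21671 transcripts the log2 differences of Ff and Mm correlated across transcripts with Pearson's r of 0.34 and Spearman's rho of 0.381, and 66.5% (14410) had the same sign. In abundance bin 1 r was 0.227 with 60% of signs shared, and in bin 10 r was 0.544, rho 0.661 and 76% of signs were shared. The highest r, 0.617, came from bin 9. These values describe transcripts and not independent replicates, and since the split was chosen over both contexts together they carry no p-value.

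**Figure D2:**
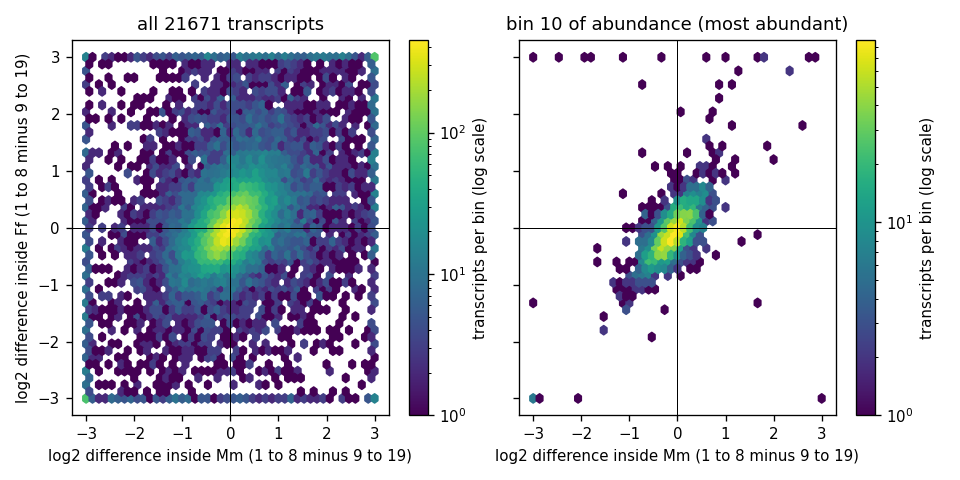
Log2 difference (females 1 to 8 minus females 9 to 19) inside Mm (horizontal axis) against that inside Ff (vertical axis), for all 21671 transcripts and for the most abundant bin, with color giving the number of transcripts per bin on a log scale and values beyond 3 drawn at 3. The cloud is broad for all transcripts (r 0.34) and narrows around the diagonal in the most abundant bin (r 0.544), where the median standard error is also lowest.

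Among transcripts called in a context the sign was shared more often. Of the 145 Mm calls at the adjusted threshold, 140 (96.6%) had the same sign in Ff, with a median size of 0.97 (log2) in Mm and of 0.64 along the same sign in Ff. Of the 3585 Mm transcripts at the unadjusted threshold 84.1% kept the sign in Ff, where the median difference along that sign was 0.35 against a size of 0.65 in Mm. The same was seen from the other side, since 84.3% of the 2683 Ff transcripts kept the sign in Mm, at 0.36 against 0.71. The size read in the context that did not choose the transcripts was thus well below the size in the one that did. A total of 983 of the 21671 kept transcripts passed the unadjusted threshold in both contexts. They were 36.6% of the Ff calls, where 16.5% of all kept transcripts passed in Mm. They were 27.4% of the Mm calls, where 12.4% of all kept transcripts passed in Ff. Of these 966 had the same direction (330 higher and 636 lower in females 1 to 8) and 17 had opposite directions. Among the 4302 transcripts that passed in 1 context only, 77.8% still had the same sign in the other.

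No transcript passed the adjusted threshold for an interaction of number group with context in voom and limma, where 1095 (5.05%) had an unadjusted p-value below 0.05. The edgeR quasi-likelihood test also gave 0, with 993 unadjusted, and DESeq2 gave 39 adjusted and 1030 unadjusted. The split was chosen over both contexts together, which can favor differences that the contexts share. A lack of interaction calls is therefore not evidence that the contexts agree. Of the 1588 transcripts called with both contexts together, 10 of the higher and 40 of the lower had an unadjusted interaction p-value below 0.05 in limma. The TPM of the 2 number groups did not overlap in 2756 transcripts in Ff (12.7%), 1549 higher (7.15%) and 1207 lower (5.57%), and in 2259 in Mm (10.4%), 1621 higher (7.48%) and 638 lower (2.94%). They did not overlap in either context in 569 transcripts in the same direction (2.63%), 312 higher (1.44%) and 257 lower (1.19%), and in 10 in opposite directions (0.0461%). These overlaps were counted on TPM, which carries no TMM factors. With 3 or 4 females in each cell, small differences between the contexts were not detectable. The error of such a difference combines those of the 2 contexts, whose median standard errors were 0.30 in Ff and 0.28 in Mm.

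A score per female, built only from transcripts picked in the other context, shows how the 15 brains lined up. For an Ff female it is the mean log2 CPM (counts scaled to the library total) of Mm transcripts higher in females 1 to 8 minus that of those lower, over 3585 transcripts. For an Mm female it uses the 2683 transcripts picked in Ff. In this score the library total was multiplied by its TMM factor. Within each context the score is centered on the midpoint of the group means, so 0 is the middle by construction. In Ff the score was 0.82, 0.97, 0.15 and 0.17 in females 1, 2, 7 and 8 and -0.65, -0.47 and -0.46 in females 9, 17 and 19. In Mm it was 0.68, 0.34, 0.63 and 0.44 in females 3 to 6 and -0.34, -0.70, -0.58 and -0.48 in females 10 to 13. The groups did not overlap in either context. Their means differed by 1.05 in Ff (0.53 ± 0.43, SD, n = 4, against -0.53 ± 0.10, n = 3) and by 1.05 in Mm (0.52 ± 0.16, n = 4, against -0.52 ± 0.15, n = 4). The split was chosen on these same 15 libraries over both contexts, so a gap in the score is no separate evidence for it.

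The widest spread was among the low-numbered Ff females, where females 7 and 8 scored far closer to 0 than females 1 and 2. Between the adjoining numbers 8 and 9, both Ff, the score went from 0.17 to -0.65, and among the females numbered 9 and above it did not run in order of the number. Female 10, nearest 0 of that group, also had the first principal component nearest 0.

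**Figure D3:**
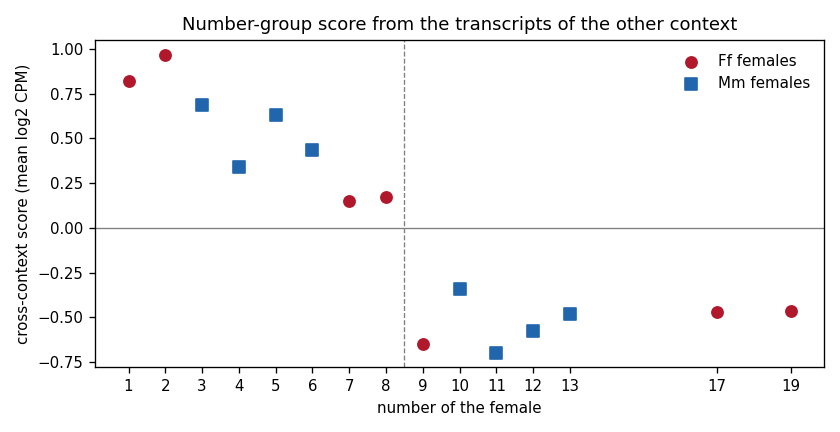
Cross-context score of each female (difference of mean log2 CPM, centered on the midpoint of the group means of its context, vertical axis) against the number of the female (horizontal axis), with Ff as circles and Mm as squares and a dashed line between numbers 8 and 9. All 8 females to the left of the line lie between 0.15 and 0.97 and all 7 to the right between -0.70 and -0.34. The line is the split that was chosen on these same libraries.

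The largest differences came with a feature of the counting. Kallisto divides a read that matches several transcripts among them, which leaves estimated counts that are not whole numbers. A count was taken as not whole when it lay more than 0.004 from a whole number, and 10802 of the 21671 kept transcripts (49.8%) had such a count in at least 1 female. The share was 41.1% among called transcripts with a log2 size up to 0.5, 51.6% from 0.5 to 1, 66.5% from 1 to 2 and 95.0% (134 of 141) above 2. It was nearly as high, 92.6% (713 of 770), among transcripts of that size that were not called. Large differences, called or not, therefore lay almost wholly in transcripts whose reads were shared. In addition 51 called transcripts had the same counts in every female as another transcript, so that the 1588 calls stand for 1558 distinct sets of values.

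**Figure D4:**
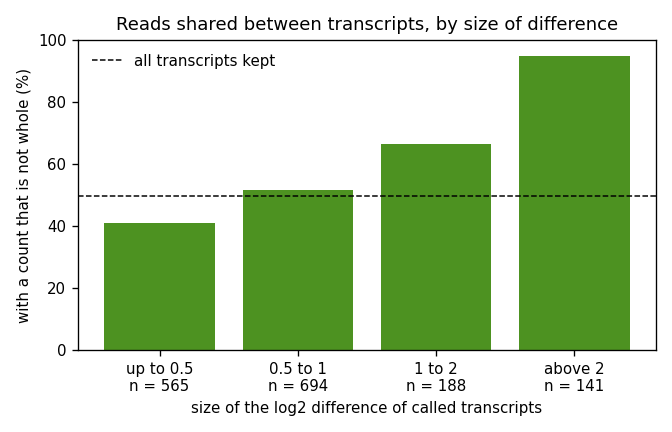
Share of called transcripts with an estimated count that is not whole in at least 1 female, in percent (vertical axis), by the size of the log2 difference (horizontal axis, with the number of transcripts), and the share over all kept transcripts as a dashed line at 49.8%. The share climbs from 41.1% in the smallest to 95.0% in the largest differences.

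Calls were about as frequent among transcripts with whole counts in every female. A whole count does not show that no reads were shared. Of the 10869 transcripts whose counts were whole in every female, 739 were called (6.8%), 273 higher and 466 lower, with a median log2 size of 0.53. Only 7 of these 739 exceeded a log2 size of 2. Of the 10802 others 849 were called (7.86%), with a median size of 0.70. The agreement between contexts was alike in both sets, at 66.5% of shared signs in each (rho 0.4 and 0.369). The leaning by abundance was also there in transcripts with whole counts, where lower calls went from 0.132% in the least to 14.7% in the most abundant bin and higher calls from 0.794% to 3.63%.

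A rule fixed for this comparison picked the transcripts to be shown in full: called, a mean TPM of 10 or more, no overlap of the groups in either context, and the largest log2 size in each direction. Of 409 transcripts that met it, 182 were higher and 227 lower in females 1 to 8, and the first 2 in each direction are given by their identifiers. All 4 had counts that were not whole. Their log2 differences come from the fit that chose them and are a description. The lack of overlap was a condition of the rule and is no finding about them.

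ENSPLAT00000020467.1, annotated at 798 bases, was the most increased in females 1 to 8. In Ff its TPM was 83.36, 77.98, 22.98 and 63.29 in females 1, 2, 7 and 8 and 0, 0 and 19.16 in females 9, 17 and 19. In Mm it was 111.37, 31.96, 45.04 and 24.63 in females 3 to 6 and 7.11, 0, 0 and 0 in females 10 to 13. The groups did not overlap, which the rule required, yet female 19 came close to female 7. The log2 difference was 6.50 (SE 1.70), 6.26 (SE 2.28) in Ff and 6.74 (SE 2.38) in Mm, values that depend on the 5 females listed at 0. Without any 1 of the 7 females 9 to 19 the call was lost, with a log2 difference of 5.95 to 7.24 and an adjusted p-value of 0.0542 to 0.066 in limma. The estimated counts themselves were whole multiples of 29.125 in all 15 females, from 0 to 20 multiples. In every female they added up to a whole number with those of the transcript listed just before it (774 bases), whose own log2 difference was 0.10 (SE 0.13). Its share of the pair was 7.37 to 29.4% in females 1 to 8 and 0 to 6.2% in females 9 to 19. The CPM of the pair together was 180.1 ± 23.5 (SD, n = 8) and 136.1 ± 27.3 (SD, n = 7), a much smaller difference with overlapping ranges.

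ENSPLAT00000014907.1, annotated at 450 bases, was the second of those higher in females 1 to 8. Its TPM in Ff was 32.09, 19.88, 16.08 and 23.89 in females 1, 2, 7 and 8 and 7.98, 0 and 8.59 in females 9, 17 and 19. In Mm it was 10.17, 10.41, 19.16 and 10.16 in females 3 to 6 and 3.74, 2.48, 0 and 5.47 in females 10 to 13. That the groups did not overlap in either context was required by the rule. In Mm the lowest of the low numbers was 10.16 and the highest of the high numbers 5.47, and in Ff these were 16.08 and 8.59. The log2 difference was 2.75 (SE 0.69), and with the edgeR quasi-likelihood test it was 1.90 with an adjusted p-value of 0.106, above the threshold. Without female 17, listed at 0, it was 1.78 with an adjusted p-value of 0.0561 in limma, and without female 12, also at 0, it was 2.35 with 0.0544, both above the threshold. Over the 31 alternatives the adjusted p-value lay between 0.0103 with DESeq2 and 0.432 with the number beside the group. Its counts also summed to whole numbers with the preceding transcript (1832 bases, log2 difference 0.11, SE 0.17). Its share of the pair was 9.71 to 32.5% in females 1 to 8 and 0 to 11.6% in females 9 to 19, which overlap. The CPM of the pair together was 25.9 ± 4.3 (SD, n = 8) and 20.4 ± 5.0 (SD, n = 7), also with overlapping ranges.

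ENSPLAT00000003593.1, annotated at 933 bases, was the most decreased. Its TPM was 1.46, 0, 0 and 0 in the Ff females 1, 2, 7 and 8 and 170.9, 237.78 and 234.98 in females 9, 17 and 19. In Mm it was 0.91, 0, 4.36 and 0 in females 3 to 6 and 175.14, 99.59, 119.09 and 246.41 in females 10 to 13. It was thus near absent from every low-numbered female and abundant in every high-numbered one. The log2 difference was -8.87 (SE 1.32), -10.23 (SE 1.19) in Ff and -7.69 (SE 1.99) in Mm. It stayed called under all 31 alternatives tried. Its partner is the preceding transcript (2196 bases), with which its counts summed to whole numbers in every female and whose log2 difference was -0.24 (SE 0.09). It took 0 to 0.38% of the counts of the pair in females 1 to 8 and 5.66 to 17.7% in females 9 to 19, and the CPM of the pair was 748 to 983.2 and 981.7 to 1291.2.

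ENSPLAT00000001116.1, annotated at 414 bases, was listed at 0 in all 8 females numbered 1 to 8. In females 9, 17 and 19 its TPM was 77.71, 83.8 and 77.87, and in females 10 to 13 it was 208.33, 33.14, 196.27 and 30.62. The Ff females were close to each other and the Mm females were not. Against a floor of 3 counts over the 52438593 counts of females 1 to 8, its mean of 25.13 CPM in females 9 to 19 was at least 439-fold higher, a bound that covers counting error only. The call was lost without female 2 (adjusted p-value 0.0519 in limma) and without female 3 (0.0647). The log2 difference was -8.05 (SE 2.00), -8.18 (SE 0.86) in Ff and -7.96 (SE 3.90) in Mm. The bound treats its reads as its own, although its counts were not whole in 7 females. They summed to whole numbers with those of a transcript of 603 bases (log2 difference 0.22, SE 0.19). Of the counts of this pair it took 0% in females 1 to 8 and 6.04 to 29.3% in females 9 to 19. The CPM of the pair together was nearly the same in the groups, at 127.0 ± 36.1 (SD, n = 8) and 130.7 ± 35.3 (SD, n = 7). The bound is thus no measure of a difference in the reads of the pair. It was the single kept transcript at 0 in all females 1 to 8 and above 0 in all others, and 1 transcript with a mean below 10 TPM showed the reverse.

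**Figure D5:**
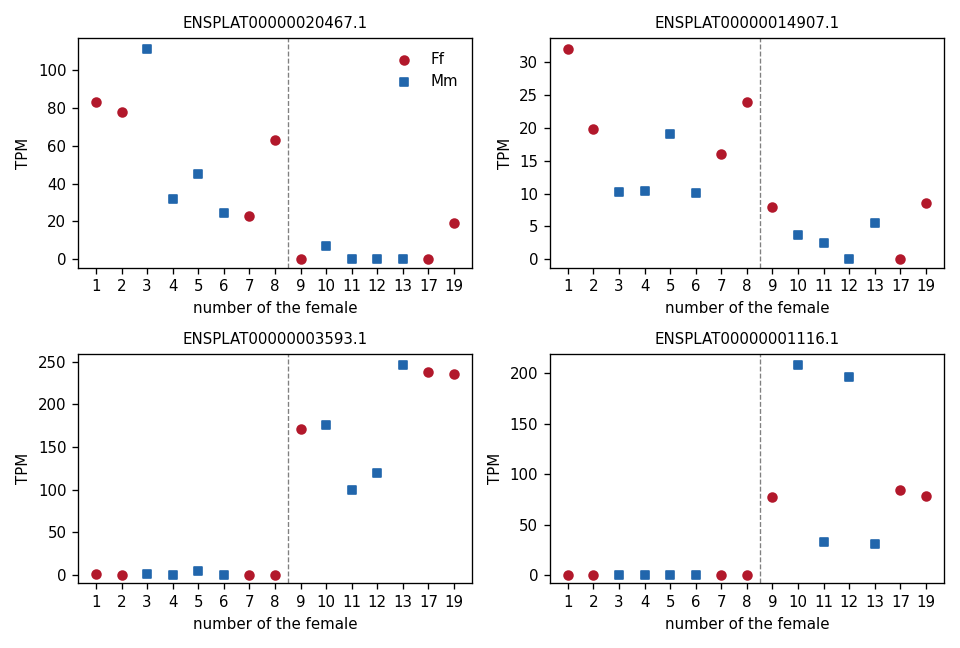
TPM (vertical axes, linear, each on its own scale) of the 4 named transcripts in each of the 15 females in order of their number (horizontal axes), with Ff as circles and Mm as squares and a dashed line between numbers 8 and 9. The upper pair is higher in females 1 to 8, with a log2 difference of 6.50 and 2.75, and the lower pair is at or near 0 there and at 30.62 TPM or more in all females 9 to 19.

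In all 4, the partner transcript that took up the rest of the shared reads differed far less between the groups than the named transcript did. Whether these sequences are alleles, copies of a gene or isoforms was not tested, since no transcript sequences were used here.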

How the data were processed

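Per the labels and the paper's methods, brain mRNA was prepared with a TruSeq kit and sequenced as single-end reads, which the authors trimmed with cutadapt, checked with FastQC and pseudoaligned to the Ensembl cDNA of P. latipinna with Kallisto 0.43.0. The authors deposited for each female the estimated count of each transcript, which need not be whole, and its TPM. The counts were not scaled between libraries, and the TPM was scaled only to transcript length and to its own library. The deposited lengths and effective lengths were the same in all 15 files, so a planned test of effective length was void.

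Estimated counts were rounded and transcripts that reached a TPM above 2 in at least 3 females kept (21671 of 31813, with 10142 dropped). voom and limma 3.58.1 with TMM factors was the main test, with context and number group over all 15 females, inside each context, and with their interaction (R 4.3.3, edgeR 4.0.16, DESeq2 1.42.0). P-values were adjusted by the Benjamini-Hochberg method across the kept transcripts and measure the spread between females. The scripts were tested on simulated counts. No 2 libraries agreed within sampling noise (chi-square per degree of freedom 10.0 or more over 105 pairs).

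The groups, the rule for named transcripts and the tests were chosen with earlier results of these data known. That rule took, among called transcripts with a mean TPM of 10 or more and no overlap of the groups in either context, the 2 of largest log2 size in each direction. The planned gene and marker lists could not be used, because no table pairs the 31813 identifiers with genes. Alternatives were other tests, scalings, filters, TPM scales, weights, thinning, covariates, thresholds and each female left out. Preference scores and standard lengths from the study's behavioral table entered only as covariates and to describe the groups.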

Additional observations from a re-analysis of the deposited data

Results flagged for a closer look

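Samples that stood apart from the other females of their group were looked for in 45 sets of values, and 4 were found. The rule is meant to flag about 1 in 20 sets by chance, but that rate does not hold for sets mostly at 0. The 3 Ff females numbered 9 to 19 were too few for this check and were not screened. ENSPLAT00000001116.1 was at 0 in all females 1 to 8, so its sets in those groups could give no flag. Female 10 had 24340 detected transcripts, the most among the Mm females 9 to 19, and the other 3 had 22698 to 22945. Female 10 was also the single Mm female of the high numbers with an estimated count above 0 for ENSPLAT00000020467.1 (TPM 7.11, the others at 0). Her count was 29.125, the smallest above 0 in any female. Female 5 had a TPM of 19.16 for ENSPLAT00000014907.1, against 10.16 to 10.41 in the other Mm females 1 to 8. Female 1 had a TPM of 1.46 for ENSPLAT00000003593.1, which was listed at 0 in the other Ff females 1 to 8. In this set and that of ENSPLAT00000020467.1 the others were at 0, so any value above 0 was bound to be flagged.

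The number groups lay apart without overlap in opposite directions in Ff and Mm in 10 transcripts, for which the difference was not tested one by one. DESeq2 called an interaction of number group with context in 39 transcripts, where voom and limma and edgeR called 0 (1095 and 993 at an unadjusted p-value below 0.05).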

How the results depend on the processing

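The count of calls with context in the model was within 1.5 times of 1588 with some exceptions. They were preference terms (50), standard length (126), and the number beside the group (19) or in its place (567). The unadjusted p-value (4976), a log2 size above 1 (329), and the omission of female 3 (940) or female 9 (1001) were exceptions too. Leaving out each female gave 940 to 1560. The count inside Ff, 1 in the main test, was 7 with edgeR, 655 with DESeq2, 0 without TMM factors and 23 without a filter. It was 17 at a mean TPM above 10, 22 on log2(TPM + 1), 46 on log2(TPM + 0.1) and 5 after thinning. It was 166 in 1 fit with 4 groups, 2683 unadjusted and 0 without any 1 of the Ff females. The count inside Mm, 145, was 95 with edgeR and with sample quality weights, 924 with DESeq2 and 33 without TMM factors. It was 409 at a mean TPM above 10, 72 and 46 on the TPM scales and 2 after thinning. It was 3585 unadjusted and 0 to 8 with each Mm female left out.

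The interaction count of 0 became 39 with DESeq2 and 1095 unadjusted, and was 0 to 0 with each female left out. Pearson's correlation of Ff with Mm, 0.34, was 0.253 with edgeR, 0.235 with DESeq2 and 0.479 at a mean TPM above 10. It was 0.278 without a filter and 0.292 to 0.36 with each female left out. Spearman's rho, 0.381, was 0.381 with edgeR and 0.382 with DESeq2. It was 0.521 at a mean TPM above 10 and 0.278 without a filter. The share of calls that were higher, 39.7%, was 57.5% without TMM factors, 64.1% and 64.2% (881 higher, 492 lower) on the TPM scales. Of 31 alternatives, ENSPLAT00000020467.1 lost its call in 11, ENSPLAT00000014907.1 in 7 and ENSPLAT00000001116.1 in 4. The 4 named transcripts, the correlation of Ff with Mm and both correlations of the difference with abundance and length kept their sign in the alternatives run for them, while the balance of higher and lower calls turned with the scaling, as given above. The cause of these changes was not tested. No paired analysis was possible because each female carries a number of her own. The least abundant bin of transcripts had the largest median standard error, 0.89 on the log2 scale. The part of depth in it was not tested.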
